A study of Mus musculus with 8 samples.

Results

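Prrt2, Doc2a, Sez6l2 and Asphd1 are genes of the segment that 16p11.2+/- mice carry in a single copy, and Doc2b, Sez6, Sez6l and Asphd2 are paralogues of the latter 3 on other chromosomes. These 8 genes were read by symbol from a table of 55032 genes, and all 8 were among the 18294 genes with enough counts to be tested. The paralogues were included to ask whether the second gene of a pair is raised where the first is lost. Striatum came from 4 female WT and 4 female 16p11.2+/- mice at postnatal day 60, all C57BL/6. The 16p11.2+/- mice belong to a deletion line from the Jackson Laboratory kept on that background, and the sources used here name no other allele and no treatment in either group. Whether the mice were littermates is not given. Total RNA of each mouse, named below by the labels as WT or DF with its number, was sequenced as a library of its own. The gene counts of a mouse summed to 15125051 to 16387993 in the WT group and to 15240680 to 16523429 in the 16p11.2+/- group.

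PRRT2 is a presynaptic membrane protein that binds SNARE proteins and synaptotagmin, and loss of a single human copy causes paroxysmal dyskinesia and infantile seizures. DOC2A and DOC2B carry a pair of C2 domains and act as calcium sensors of spontaneous and asynchronous transmitter release. SEZ6, SEZ6L and SEZ6L2 are neuronal transmembrane proteins with CUB and sushi domains that are cut by the protease BACE1, and ASPHD1 and ASPHD2 are little-studied membrane proteins with an aspartate beta-hydroxylase domain.

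In the order of their levels in WT striatum, Sez6l2 had an FPKM (fragments per kilobase of exon, scaled to the total count of the mouse) of 65.5 ± 1.0 (SD, n = 4 mice), Sez6 61.3 ± 12.2 and Sez6l 25.2 ± 7.44. Asphd2 had an FPKM of 18.8 ± 3.69 (SD, n = 4), Doc2b 16.9 ± 2.85 and Asphd1 16.3 ± 1.42. Doc2a, with 1.37 ± 0.813 (SD, n = 4), and Prrt2, with 0.348 ± 0.174, had far lower values. For Prrt2, 92.4% of the exon sequence is shared with the gene model Gm42742, as described below. Whether its FPKM is comparable with that of the other genes was not tested. Sez6l2 and Sez6, and likewise Asphd2, Doc2b and Asphd1, did not differ in level beyond the spread between mice.

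The 4 deleted genes lie on chromosome 7 in GENCODE M21 (GRCm38). Doc2a (ENSMUSG00000052301) runs from 126847416 to 126852705 on the forward strand, Asphd1 (ENSMUSG00000046378) from 126945567 to 126949582 on the reverse strand, Sez6l2 (ENSMUSG00000030683) from 126950563 to 126970606 on the forward strand and Prrt2 (ENSMUSG00000045114) from 127017531 to 127021211 on the reverse strand. Asphd1 and Sez6l2 are divergent neighbours with 980 bases between them. Their paralogues are neighbours as well: Asphd2 (ENSMUSG00000029348, 112384354 to 112394866) and Sez6l (ENSMUSG00000058153, 112419151 to 112577185) lie 24.3 kb apart on chromosome 5, both on the reverse strand. Doc2b (ENSMUSG00000020848, 75768966 to 75796049, reverse strand) and Sez6 (ENSMUSG00000000632, 77930800 to 77979048, forward strand) are both on chromosome 11, 2135 kb apart.

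Whether a read of one paralogue could be counted on the other was read from the coding sequences. In global alignments, 71.9% of the aligned bases were identical between Doc2a and Doc2b, 61.2% between Sez6l2 and Sez6, 61.9% between Sez6l2 and Sez6l and 60.6% between Asphd1 and Asphd2. The longest stretch shared without a mismatch was 14 bases for Doc2a and Doc2b and 15 for Sez6l2 and Sez6. It was 23 bases for Sez6l2 and Sez6l and 17 for Asphd1 and Asphd2. The libraries are described as paired end, 250 bp, without saying whether this is the read or the fragment length. The shared stretches mark how far the genes of a pair differ. They are shown for the pair with the longest match to each deleted gene. Capitals mark the shared run, with up to 15 coding bases on either side, 5′ to 3′ in transcript direction (GENCODE M21, GRCm38).
Doc2a: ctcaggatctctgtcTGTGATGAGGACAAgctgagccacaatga
Doc2b: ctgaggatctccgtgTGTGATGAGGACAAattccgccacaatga
Sez6l2: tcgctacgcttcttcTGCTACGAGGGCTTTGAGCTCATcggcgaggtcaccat
Sez6l: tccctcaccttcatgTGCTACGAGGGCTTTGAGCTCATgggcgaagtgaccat
Asphd1: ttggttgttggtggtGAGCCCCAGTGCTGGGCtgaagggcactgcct
Asphd2: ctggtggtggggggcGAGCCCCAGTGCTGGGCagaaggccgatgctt
The shared runs are coding exon sequence at chr7:126850944-126850957 (forward strand) in Doc2a, chr11:75780142-75780155 (reverse) in Doc2b, chr7:126967112-126967134 (forward) in Sez6l2, chr5:112428447-112428469 (reverse) in Sez6l, chr7:126946773-126946789 (reverse) in Asphd1 and chr5:112386815-112386831 (reverse) in Asphd2.

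Overlap with other genes differed much more among the 4 deleted genes. Of the exon sequence of Prrt2, 92.4% is also exon sequence of Gm42742, a gene model on the same strand that spans Pagr1a and Prrt2. The remaining 241 bases of Prrt2 lie in stretches of 127 and 114 bases, and 0 of its 1119 annotated coding bases are among them. The setting of Htseq-count is not given in the sources used here, but its default counts no read that falls on more than 1 gene. Pagr1a, with 98.7% of its exon sequence inside Gm42742, had 3 counts over the 8 mice. Whether reads of Prrt2 were left out in this way was not tested, and its FPKM, which divides by the full exon length, is given here as deposited. Doc2a shares 39.4% of its exon sequence with Ino80e on the opposite strand, Sez6l2 9.81% with Gm21984 on the same strand, Doc2b 5.53% with Gm12339 and Asphd1 3.89% with Kctd13, both opposite, and Sez6, Sez6l and Asphd2 share none. Reads of overlapping genes on opposite strands cannot be told apart unless strand was used in counting, which the sources used here do not give.

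Marker genes of several cell types differed widely between the mice, and their values are given first. A score of 9 medium spiny neuron genes (mean log2 CPM, where CPM is the count relative to the library total), the projection neurons that make up most of the striatum, was between 8.07 and 8.83 in the 4 WT mice, 8.75 in DF-1018 and 8.61 in DF-1059, but 6.71 in DF-1037 and 6.28 in DF-1062. Their summed FPKM was at least 919 in the first 6 mice, 353 in DF-1037 and 282 in DF-1062, with 0 of the 9 genes at 0 in all mice. The most abundant of them, the enkephalin precursor gene Penk, had an FPKM of 111 in DF-1037 and 115 in DF-1062, against at least 266 in the other mice. A score of 7 thalamic neuron genes was between 3.40 and 3.52 in WT-1015, WT-1041 and WT-1061 and 3.99 in DF-1059, against 6.90 in WT-1063, 5.86 in DF-1018, 6.81 in DF-1037 and 6.70 in DF-1062. Their summed FPKM was between 18.8 and 48.4 in the first 4 of these mice and between 110 and 196 in the others, and Prkcd, the most abundant, ranged from 3.78 to 82.0. High thalamic scores were thus found in 3 of 4 16p11.2+/- mice and 1 of 4 WT mice, and low medium spiny neuron scores in 2 of 4 and 0 of 4. In bulk tissue, fewer cells of a type and less RNA per cell cannot be told apart.

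Sez6l2 and Asphd1 were each lower by about 1 on the log2 scale in 16p11.2+/- striatum. The test was the quasi-likelihood test of edgeR, adjusted after Benjamini-Hochberg over all genes tested, and 2 of the 4 deleted genes passed at an adjusted p under 0.05, both lower. Over all genes, 0.0929% passed as lower, all of them, these 2 included, in the deleted interval as drawn below. Negative log2 fold changes stand for lower expression in 16p11.2+/- mice.

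The FPKM of Sez6l2 was 64.4, 66.8, 65.2 and 65.4 in WT-1015, WT-1041, WT-1061 and WT-1063, and 30.9, 33.7, 31.1 and 37.0 in DF-1018, DF-1037, DF-1059 and DF-1062. All 16p11.2+/- mice lay below all WT mice, with the highest value of the group in DF-1062. Its log2 fold change was -1.0 (standard error 0.07, 95% interval -1.16 to -0.85, edgeR adjusted p = 0.000777), so that the level in 16p11.2+/- mice was 49.9% of WT with an interval of 44.8% to 55.5%. The spread of Sez6l2 between WT mice was a coefficient of variation of 1.53%, against 8.63% between 16p11.2+/- mice. With the 8 mice left out in turn, its log2 fold change ranged from -1.02 to -0.97.

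Asphd1 had an FPKM of 15.8, 18.0, 16.7 and 14.7 in the WT mice and 7.69, 7.72, 8.46 and 6.41 in the 16p11.2+/- mice, in the same order. The groups did not overlap for Asphd1 or for Sez6l2, and neither did they, in the lower direction, for 1.62% of all genes tested. The log2 fold change of Asphd1 was -1.12 (standard error 0.12, 95% interval -1.40 to -0.84, edgeR adjusted p = 0.0127), or 45.9% of WT. The interval includes -1. In the fits that lacked 1 mouse its value stayed between -1.17 and -1.02, but the edgeR adjusted p was 0.0712 without WT-1015, 0.0745 without WT-1041, 0.0724 without WT-1061, 0.0618 without DF-1018 and 0.0506 without DF-1059. Without both DF-1037 and DF-1062, chosen after their low medium spiny neuron scores were seen, it was 0.0827, and then 1 of the 4 deleted genes passed.

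**Figure D1:**
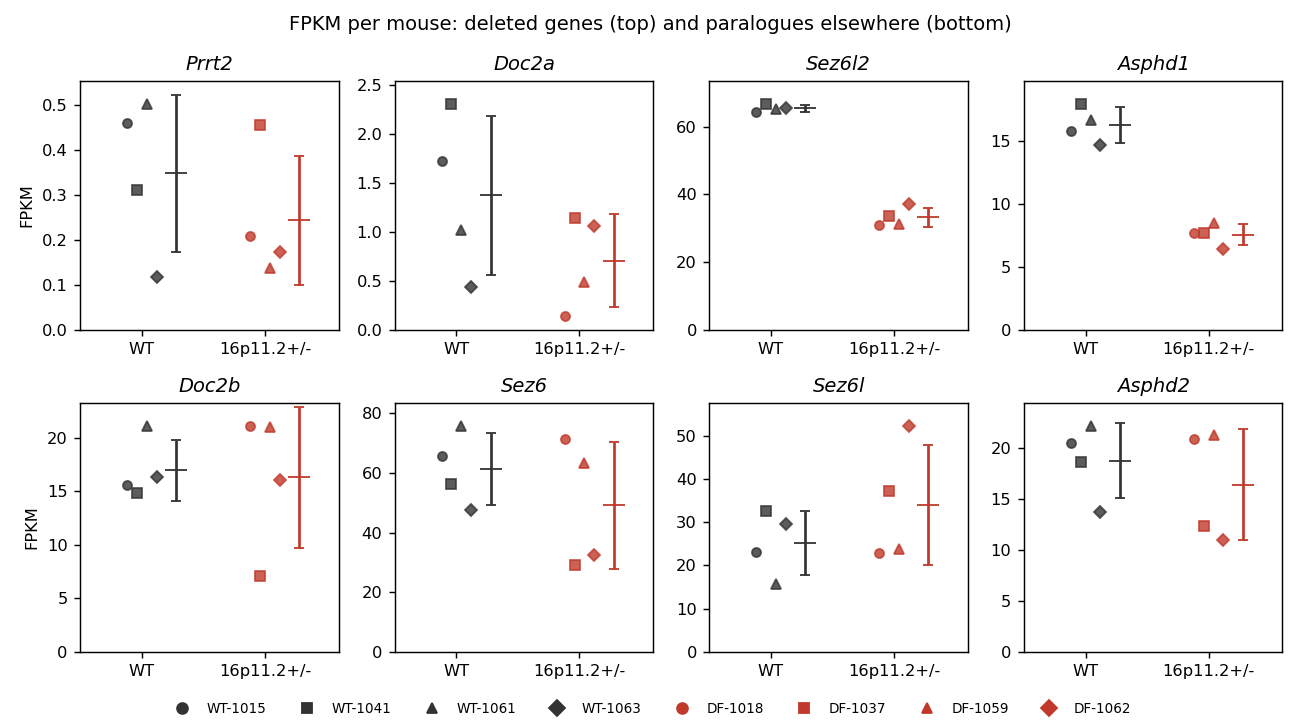
FPKM of the 4 deleted genes (top) and the 4 paralogues (bottom) in each mouse, WT in black and 16p11.2+/- in red, with the mean and SD (n = 4) beside the points and each axis starting at 0. For Sez6l2 and Asphd1 all 16p11.2+/- mice sit below all WT mice, whereas the groups overlap for the other 6 genes.

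Doc2a was measured with few reads, and its values varied widely within each genotype. It had 73, 99, 47 and 20 counts in WT-1015, WT-1041, WT-1061 and WT-1063, and 6, 49, 22 and 49 in DF-1018, DF-1037, DF-1059 and DF-1062. The groups overlapped, and only DF-1018 lay below every WT mouse. The log2 fold change of Doc2a was -0.99 (standard error 0.63, 95% interval -2.42 to 0.44, edgeR adjusted p = 0.859), an interval that holds both -1 and 0, so that a loss of 1 log2 unit and no change could not be separated. The coefficient of variation of Doc2a between mice was 59.2% in WT and 67.6% in 16p11.2+/- mice. In the fits without single mice it ranged from -1.32 to -0.63. It was -1.86 (95% interval -3.46 to -0.26, edgeR adjusted p = 1.0) with the medium spiny neuron score as covariate and -2.12 (95% interval -3.93 to -0.30, edgeR adjusted p = 0.995) without DF-1037 and DF-1062, but -0.61 with the thalamic score as covariate. In limma the log2 fold change of Doc2a was -0.45 on log2(FPKM + 1), -0.93 on log2(FPKM + 0.1) and -1.06 with voom. Doc2a is known from glutamatergic neurons of the forebrain, and a score of 7 cortical glutamatergic neuron genes, with Slc17a7 the most abundant, was 5.24, 5.40, 4.33 and 1.69 in the WT mice and 1.26, 5.48, 4.26 and 1.68 in the 16p11.2+/- mice. The lowest Doc2a count of each genotype was thus in WT-1063 and DF-1018, which also had the lowest cortical score of their group. In contrast, DF-1062 combined 49 counts of Doc2a with a score of 1.68. Not every cortical gene followed the score. In the 16p11.2+/- mice, in the same order, Lamp5 had an FPKM of 23.9, 13.9, 26.8 and 9.08. The part of this tissue in the Doc2a difference was not tested beyond a fit with the score as covariate, in which the log2 fold change of Doc2a was -0.49 (95% interval -1.83 to 0.85). Ino80e, which overlaps Doc2a on the opposite strand and encodes a chromatin remodelling subunit, was lower at -0.95 on the log2 scale (edgeR adjusted p = 0.0183).

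Prrt2 had 22, 15, 26 and 6 counts in the WT mice and 10, 22, 7 and 9 in the 16p11.2+/- mice. The groups overlapped, with the lowest value of all in WT-1063. Its log2 fold change was -0.54 (standard error 0.52, 95% interval -1.72 to 0.64, edgeR adjusted p = 0.864), and it was -1.03 to -0.30 in the fits without single mice. With the thalamic, the cortical or the medium spiny neuron score as covariate it was -0.21, -0.23 or -0.63, and without DF-1037 and DF-1062 it was -1.0. In limma the log2 fold change of Prrt2 was -0.11 on log2(FPKM + 1), -0.36 on log2(FPKM + 0.1) and -0.49 with voom. If reads on more than 1 gene were left out, these counts come from the noncoding bases free of Gm42742. The overlapping Gm42742, looked up after the counts of Prrt2 were seen, had 82, 65, 71 and 31 counts in the WT mice and 24, 27, 23 and 33 in the 16p11.2+/- mice, and its log2 fold change was -1.26 (95% interval -1.97 to -0.55, edgeR adjusted p = 0.859). For Gm42742, WT-1063 lay within the range of the 16p11.2+/- mice, and the other WT mice lay above it.

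Along the deleted interval, the log2 fold changes of the 4 genes lay between -1.12 and -0.54, and their median was -1.0. The labels do not give its borders, and it is drawn from Slx1b to Tbc1d10b, the span over which genes were lower in these data. The direction, median, range and number of genes passing within it are therefore a description. The other 28 genes tested in this span had a median of -0.96 and a range of -1.29 to -0.50. Of them 15 passed the test. With Sez6l2 and Asphd1 they are the 17 genes that passed as lower over all genes tested (0.0929%). That share thus holds no gene from outside the span. The 95% intervals of Doc2a and Prrt2 each span the whole range of -1.29 to -0.50. From a list of 24 other genes, drawn up for the interval but including Sept1 from beyond the span drawn here, 20 were tested. Of these, 12 passed as lower, all part of the same 0.0929%: Bola2, Mapk3, Ypel3, Ppp4c, Aldoa, Ino80e, Hirip3, Taok2, Tmem219, Kctd13, Cdipt and Maz. Slx1b, Coro1a, Tbx6, Fam57b, Mvp and Kif22 had an unadjusted edgeR p under 0.05 alone. The lowest log2 fold change of the list was that of Mvp (-1.29), followed by Tmem219 (-1.23), and the highest those of Sept1 (-0.25, 95% interval -0.96 to 0.45, edgeR adjusted p = 0.88), which lies beyond Tbc1d10b and whose groups overlapped, and Tbx6 (-0.66). The most abundant genes were Aldoa, the glycolytic aldolase, at a mean FPKM of 301 ± 9.48 in WT and 153 ± 7.63 in 16p11.2+/- mice (SD, n = 4), and Mapk3, the kinase ERK1, with 40.5 ± 4.80 and 21.4 ± 0.70.

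**Figure D2:**
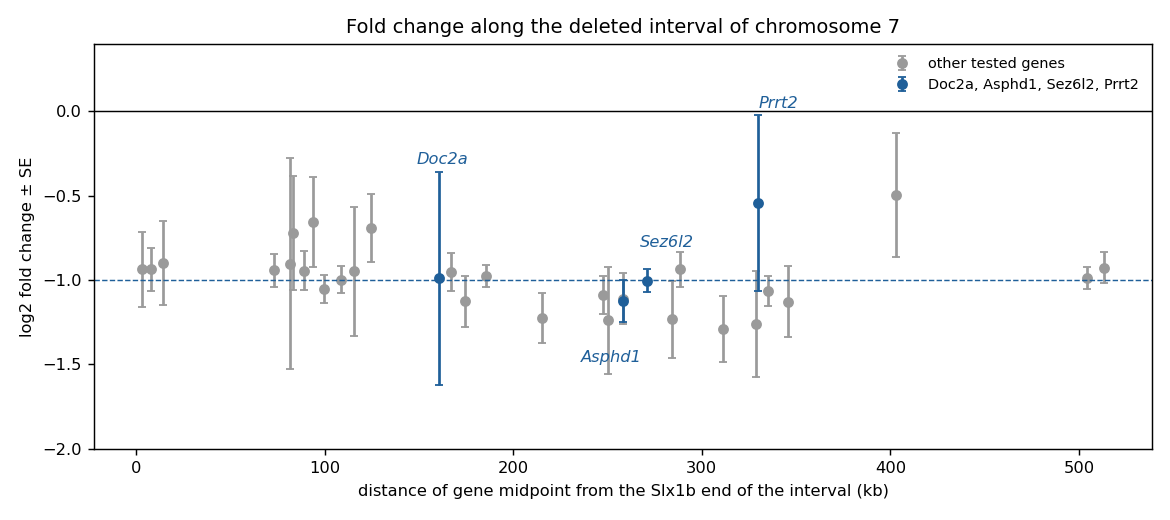
Log2 fold change (16p11.2+/- over WT, bars are standard errors) of each tested gene of the interval against the distance of its midpoint from the Slx1b end in kb, with Doc2a, Asphd1, Sez6l2 and Prrt2 in blue and a dashed line at -1. Sez6l2 and Asphd1 lie at -1.0 and -1.12 with short bars, and Doc2a and Prrt2 have bars of 0.63 and 0.52.

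None of the 4 paralogues was called: 0 passed with edgeR, with DESeq2 or with limma-voom, and 0 had an unadjusted edgeR p under 0.05, a level that 4.32% of all genes tested reached. Over all genes, 0.109% passed the adjusted test in either direction and 0.0164% as higher. The groups overlapped for each of the 4 paralogues, whereas they did not for 2.83% of all genes tested, with 1.21% higher. Their intervals were wide, so moderate changes in either direction were not detectable, while a doubling lay outside the intervals of Doc2b, Sez6 and Asphd2 and inside that of Sez6l.

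Doc2b had an FPKM of 15.6, 14.8, 21.1 and 16.3 in WT-1015, WT-1041, WT-1061 and WT-1063 and 21.1, 7.11, 21 and 16.0 in DF-1018, DF-1037, DF-1059 and DF-1062. The groups overlapped, and DF-1037 alone was below the WT range. The log2 fold change was -0.07 (standard error 0.31, 95% interval -0.77 to 0.62, edgeR adjusted p = 0.96). Without DF-1037 it was 0.18 and without WT-1061 0.06, so its sign rested on single mice.

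Sez6 had an FPKM of 65.6, 56.4, 75.8 and 47.4 in the WT mice and 71.3, 29.2, 63.4 and 32.4 in the 16p11.2+/- mice. DF-1037 and DF-1062 lay below every WT mouse, and DF-1018 and DF-1059 within the WT range. The log2 fold change was -0.33 (standard error 0.32, 95% interval -1.05 to 0.38, edgeR adjusted p = 0.864), and leaving out single mice gave -0.58 to -0.15.

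Asphd2 resembled Sez6 in its lowest mice, with an FPKM of 20.5, 18.6, 22.2 and 13.7 in the WT mice and 20.9, 12.4, 21.3 and 11 in the 16p11.2+/- mice. Again DF-1037 and DF-1062 lay below every WT mouse, DF-1018 and DF-1059 were within the WT range, and WT-1063 was the lowest WT mouse. The log2 fold change was -0.21 (standard error 0.26, 95% interval -0.79 to 0.38, edgeR adjusted p = 0.882), and leaving out single mice gave -0.35 to -0.03.

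In Sez6l the same mice were high, with an FPKM of 23.0, 32.5, 15.8 and 29.6 in the WT mice and 22.9, 37.2, 23.7 and 52.3 in the 16p11.2+/- mice. DF-1037 and DF-1062 lay above every WT mouse, and the others within the WT range. The log2 fold change was 0.40 (standard error 0.29, 95% interval -0.26 to 1.06, edgeR adjusted p = 0.859), and leaving out single mice gave 0.16 to 0.55.

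**Figure D3:**
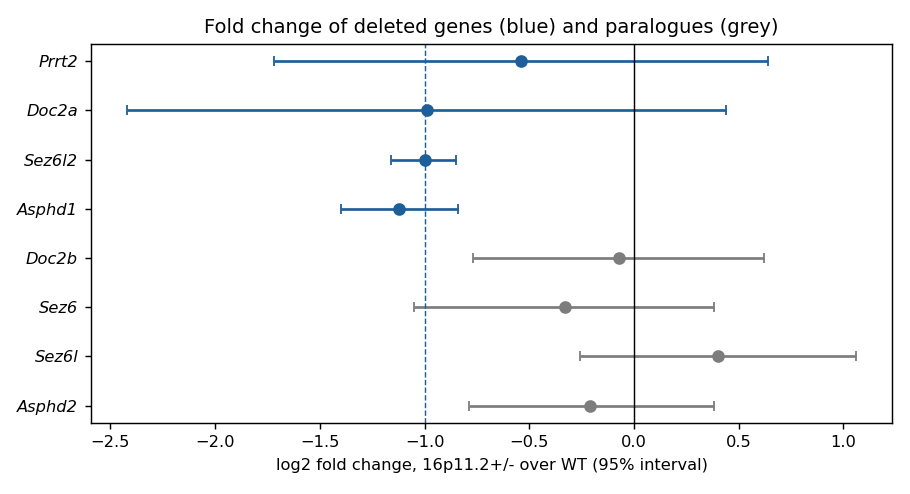
Log2 fold change of each gene with its 95% interval from edgeR, deleted genes in blue and paralogues in grey, with a solid line at 0 and a dashed line at -1. The intervals of Sez6l2 (-1.16 to -0.85) and Asphd1 (-1.40 to -0.84) exclude 0, and all others include it.

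DF-1037 and DF-1062, in which Sez6, Asphd2 and Sez6l stood apart, had the lowest medium spiny neuron scores and also high thalamic scores. Scores of 6.71 and 6.28 in DF-1037 and DF-1062 went with the lowest Sez6 and Asphd2 and the highest Sez6l, and the highest score, 8.83 in WT-1061, with the highest Sez6 and Asphd2 and the lowest Sez6l. As the scores fall into separate clusters, no correlation is given. With the score as a covariate in edgeR, an alternative chosen after these values were seen, the log2 fold changes were 0.04 for Sez6 (95% interval -0.20 to 0.29), 0.12 for Asphd2 (-0.13 to 0.37), -0.04 for Sez6l (-0.42 to 0.35) and 0.19 for Doc2b (-0.41 to 0.80). The sign of all 4 paralogues turned in this fit, and 0 of the 4 passed. With the thalamic score as covariate the values were -0.03 for Sez6, 0.12 for Asphd2, 0.11 for Sez6l and 0.09 for Doc2b, and with the cortical score -0.38, -0.15, 0.37 and -0.24 in the same order. Without both DF-1037 and DF-1062 they were 0.14 for Sez6 (-0.30 to 0.59), 0.18 for Asphd2 (-0.26 to 0.61), -0.11 for Sez6l (-0.71 to 0.50) and 0.32 for Doc2b (-0.03 to 0.67), and again 0 passed. Sez6l2 kept a log2 fold change of -1.05 (95% interval -1.19 to -0.91) with the score as covariate, and Asphd1 one of -1.02 (95% interval -1.30 to -0.74).

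**Figure D4:**
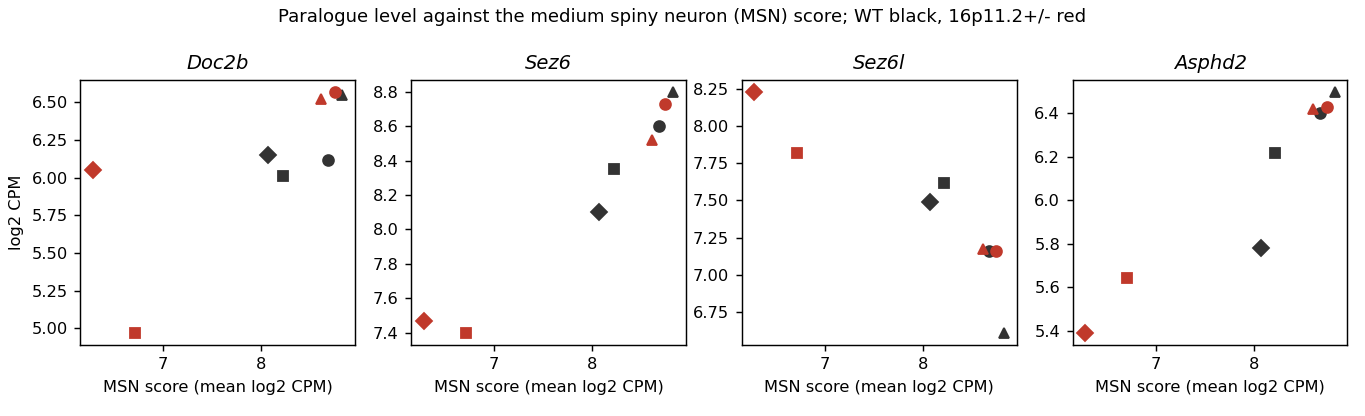
Level (log2 CPM) of each paralogue against the medium spiny neuron score (mean log2 CPM of 9 genes) of each mouse, WT in black and 16p11.2+/- in red, with the same marker shapes as in the plot of FPKM by mouse. DF-1037 and DF-1062, at scores of 6.71 and 6.28, have the lowest Sez6 and Asphd2 and the highest Sez6l.

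The balance within each pair was compared by the log2 ratio of the FPKM values within a mouse, which does not depend on library scaling. Of 4 ratios tested with exact two-sided permutation tests, 2 separated the genotypes fully. The deleted genes in these 2 ratios, Sez6l2 and Asphd1, had log2 fold changes of -1.0 and -1.12 and groups that did not overlap. With an unchanged paralogue, the ratios would thus differ by about those values and not by 0. The tests therefore do not show a change of a paralogue. The Sez6l2/Sez6l ratio was between 1.04 and 2.04 on the log2 scale in WT mice and between -0.50 and 0.43 in 16p11.2+/- mice, a difference of -1.38 (exact permutation p = 0.0286, the smallest that 4 against 4 mice can give). Its lowest values, -0.14 and -0.50, were those of DF-1037 and DF-1062, the mice with the highest Sez6l and the lowest medium spiny neuron scores. The Asphd1/Asphd2 ratio was between -0.41 and 0.10 in WT and between -1.44 and -0.68 in 16p11.2+/- mice, a difference of -0.88 (exact permutation p = 0.0286). Adjusted after Benjamini-Hochberg over the 4 ratios, both exact permutation p-values were 0.0571 and so missed 0.05. Without WT-1041 or without WT-1063 the unadjusted p of the Asphd1/Asphd2 ratio was 0.0571, with differences of -0.83 and -0.78. The Sez6l2/Sez6 ratio differed by -0.57 (exact permutation p = 0.257), since DF-1037 and DF-1062, with 0.21 and 0.19, lay among the WT values of -0.22 to 0.46 while DF-1018 and DF-1059 had -1.21 and -1.03. The Doc2a/Doc2b ratio spread from -5.21 to -2.68 in WT and from -7.23 to -2.64 in 16p11.2+/- mice and differed by -0.95 (exact permutation p = 0.486). Leaving out single mice moved this difference from -1.67 to -0.14 and that of the Sez6l2/Sez6 ratio from -0.80 to -0.32.

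As a description of how much transcript remained in each family, the FPKM of its members was summed. The 3 genes of the Sez6 family summed to 152 ± 6.54 (SD, n = 4) in WT and to at most 125 in 16p11.2+/- mice, whose mean was 76.5% of that of WT, and the share of Sez6l2 in the sum was 43.1% ± 1.94 in WT and 28.8% ± 4.06 in 16p11.2+/- mice. Asphd1 and Asphd2 summed to 35.0 ± 4.63 (SD, n = 4) and 24.0 ± 6.12, with Asphd1 at 46.8% ± 4.32 and 32.6% ± 5.77 of the sum. This sum overlapped between the groups, at 28.3 to 38.9 in WT and 17.5 to 29.8 in 16p11.2+/- mice, and DF-1037 and DF-1062 alone lay below the WT range. Doc2a and Doc2b summed to 18.3 ± 2.56 (SD, n = 4) and 17 ± 6.18, and Doc2a was only 7.67% ± 4.95 of that sum in WT. Among these striatal pieces, Doc2b was thus the main transcript of the pair in every mouse, with at least 86.2% of the sum.

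For the next 4 lists, a count of 0 is near the background, since 4.32% of all genes had an unadjusted edgeR p under 0.05 and 0.109% were called. Of 7 more distant relatives of these families, 5 were tested, with 0 at an unadjusted edgeR p under 0.05, 0 called by edgeR, DESeq2 or limma-voom, and a median log2 fold change of 0.02 against -0.01 for all genes. Rph3a, a C2 domain protein that binds Rab3, was at an FPKM of 65.6 ± 4.92 in WT and 61.0 ± 11.9 in 16p11.2+/- mice (SD, n = 4), with a log2 fold change of -0.13. Prrt1, which like Prrt2 belongs to the dispanin family and binds AMPA receptors, had 31.9 ± 3.49 and 28.6 ± 1.55, with a log2 fold change of -0.18. Doc2g, the third Doc2 gene, was at 0.396 ± 0.102 and 0.539 ± 0.155, with a log2 fold change of 0.42. Tmem233 and Trarg1, further dispanins, did not pass the filter on low counts that edgeR and limma-voom used.

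Of 14 genes of the release machinery that PRRT2 and DOC2 proteins bind or act beside, all tested, 0 had an unadjusted edgeR p under 0.05 and 0 were called by edgeR, DESeq2 or limma-voom, with a median log2 fold change of 0.07 and a range of -0.26 to 0.42. Snap25, the SNARE protein of the plasma membrane, was at an FPKM of 269 ± 12.9 in WT and 279 ± 71.3 in 16p11.2+/- mice (SD, n = 4), the highest value being 386 in DF-1037, with a log2 fold change of 0.04. Cplx2, a complexin that clamps SNARE complexes, had 286 ± 62.8 and 241 ± 83.8 (log2 fold change -0.26), and Cplx1 193 ± 75.3 and 244 ± 63.3 (log2 fold change 0.32). Syt2, a fast calcium sensor, had 11.8 ± 5.11 and 16.0 ± 2.75, with the largest log2 fold change of the list at 0.42 and overlapping groups.

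Of 9 channels and receptors linked to PRRT2 or to the SEZ6 family, 0 had an unadjusted edgeR p under 0.05 and 0 were called by edgeR, DESeq2 or limma-voom, and the median log2 fold change was -0.14. The AMPA receptor subunits Gria1 and Gria2 were the most abundant, with log2 fold changes of -0.07 and -0.20, and Scn1a, a sodium channel (0.39), and Neto2, an auxiliary subunit of kainate receptors (-0.39), had the largest values in either direction. Of 5 genes for the processing or binding of SEZ6 proteins, 0 had an unadjusted edgeR p under 0.05 and 0 were called by edgeR, DESeq2 or limma-voom, with log2 fold changes from -0.09 to 0.05. Bace1, the protease that releases SEZ6 ectodomains, was at an FPKM of 16.0 ± 0.856 in WT and 15.9 ± 0.35 in 16p11.2+/- mice (SD, n = 4). The adducin genes Add1 and Add2 were the most abundant of this list, and their log2 fold changes were -0.07 and -0.09.

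The genes whose log2 CPM rose and fell most like each member across the 8 mice were listed as a description. All genes were read from the same 8 libraries, and the deleted genes also share the genotype difference itself. For Sez6l2 they were Aldoa (Pearson's r = 0.995), Ppp4c (0.993) and Taok2 (0.993), all of the deleted interval, and for Asphd1 the unnamed gene model Gm44136 (0.974) with Mapk3 (0.974) and Tmem219 (0.971). Sez6 was followed most closely by U2surp (0.996), Bcr (0.995) and Adamts3 (0.995), Asphd2 by Caln1 (0.997), Sh2d5 (0.994) and Neto1 (0.992), Sez6l by Hsf1 (0.988), Wdr82 (0.982) and Fam149a (0.977), and Doc2b by Gm20939 (0.986), Smad5 (0.983) and Igsf9 (0.980). For Doc2a and Prrt2, with few counts, they were Gm42656 (0.961), Rad51ap1 (0.957) and A930005G22Rik (0.954), and 1110038F14Rik (0.975), Dnah7c (0.947) and Efna3 (0.946).

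Markers of the cells in the pieces moved as follows between the genotypes, with 0 of the genes of these lists called by edgeR, DESeq2 or limma-voom. All 9 medium spiny neuron genes had negative log2 fold changes (median -0.53), among them Ppp1r1b (-0.57) and Pde10a (-0.59), and all 7 thalamic genes positive ones (median 0.86), among them Slc17a6 (1.20), Lhx9 (1.20), Prkcd (0.76) and Zic1 (0.37), with an unadjusted edgeR p under 0.05 for 0 genes of either list. The 7 cortical genes had a median of -0.51, among them Slc17a7 (-0.21), Neurod6 (-0.75), Tbr1 (-0.68) and Lamp5 (-0.11), again with 0 genes under 0.05 unadjusted. Of 6 general neuronal genes, 5 were above 0 (median 0.13), with Stmn2 (0.39) and Nefl (0.22) the largest and Syt1 at 0.08, and 0 were under 0.05 unadjusted. Of 7 oligodendrocyte genes, 5 had an unadjusted edgeR p under 0.05 (background 4.32%), all negative, among them Mag (-0.33), Mog (-0.47), Cldn11 (-0.52) and Mobp (-0.48), each with an adjusted p of 0.859. Of 6 choroid plexus genes, 3 were tested, and Ttr (-5.02) and Kl (-3.52) had an unadjusted edgeR p under 0.05, with a Ttr FPKM of 4273 in WT-1063 and 1.12 in WT-1041. Apart from the fits with scores of medium spiny, thalamic and cortical neurons as covariates, the part of these cells in the values of the 8 genes was not tested.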

How the data were processed

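Striatal RNA of 4 WT and 4 16p11.2+/- mice was sequenced, without a batch in the labels. After removal of adapters and poor reads, the authors aligned with Hisat2 2.1.0 and deposited the Htseq-count count of each gene, with annotation and strand setting not given in the sources used here. The submitters' processing notes list Bowtie 0.12.2 and the builds mm8 and mm9. The deposited FPKM scales each count by gene length and library total, and the length it implies equalled the GENCODE M21 (GRCm38) exon length within 1 base for 95.9% of 19429 genes, so M21 gave the positions. Fold changes, p-values and FPKM bins computed by the authors were not used.

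The edgeR 4.0.16 quasi-likelihood test (R 4.3.3) used TMM scaling and filterByExpr at a minimum count of 10 and minimum total of 15, with a Benjamini-Hochberg threshold of 0.05. Standard errors and 95% intervals were derived from its F statistic, and log2 CPM had a prior count of 2. FPKM ratios were compared by two-sided exact permutation over 70 assignments. The code was tested on simulated data. Alternatives were DESeq2 1.42.0, voom and trend fits of limma 3.58.1, other scalings and filters, marker scores as covariates, and leaving out mice. Within a genotype, pairs of mice differed by 8.88 to 62.9 times the counting noise (chi-square over its degrees of freedom), and each mouse counted as 1 sample.

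The members and lists were chosen with earlier results of these data known. Named were the 8 genes, list genes with an unadjusted p under 0.05, the 2 most abundant and 2 most changed of each list, and the 3 genes most like each member. Sept1 and Trarg1, listed under other symbols in the table, were matched by gene ID through M21, and of genes sharing a symbol the one with most counts was taken. Some genes that this rule names are not reported here.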

Additional observations from a re-analysis of the deposited data

Results flagged for a closer look

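Within each genotype, 36 groups of 4 values (genes, ratios and marker scores) were examined for a mouse far from the other 3, and 2 had one. Chance gives about 1 in 20. WT-1063 had a thalamic neuron score of 6.90, with 3.40 to 3.52 in the remaining WT animals, a gap of 0.966 of the range. DF-1037 had a choroid plexus score of 2.80, with 0.92 to 1.19 in the remaining 16p11.2+/- animals, a gap of 0.856 of the range.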

How the results depend on the processing

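No paired analysis was possible because WT and 16p11.2+/- mice have different numbers. Sez6l2 passed in the 20 alternatives with an adjusted p, and 0 paralogues passed in any of 20. Prrt2 and Doc2a could not be tested with at least 10 counts required in every mouse. Of all genes, 20 passed, against 29 with DESeq2, 11 with the thalamic score as covariate, 11 without DF-1037 and DF-1062 together and 8 to 18 with a mouse left out. Of the deleted genes, 2 passed, against 1 without DF-1037 and DF-1062, where Asphd1 had a log2 fold change of -1.0, and 1 to 2 with a mouse left out, where Asphd1 ranged from -1.17 to -1.02 and the Asphd1/Asphd2 ratio from -1.0 to -0.75. The sign of Doc2b turned with the thalamic score (0.09) and that of Asphd2 too (0.12), and with a mouse left out Doc2b ranged from -0.24 to 0.18. With the medium spiny neuron score, chosen after seeing the data, the signs turned for Doc2b (0.19), Sez6 (0.04), Sez6l (-0.04) and Asphd2 (0.12), and likewise without DF-1037 and DF-1062, also chosen after seeing the data, for Doc2b (0.32), Sez6 (0.14), Sez6l (-0.11) and Asphd2 (0.18). The cause was not tested.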
